A study of Bos taurus with 13 samples.

Results

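The genes described here are 9 that mark the B cell lineage, *MS4A1*, *CD79A*, *CD79B*, *PAX5*, *BLK*, *FCRLA*, *CD22*, *CR2* and *EBF1*, in the blood of dairy cows with high or low cortisol in their milk. They were taken by gene name from the 16095 named genes of the count tables, and all 9 were found and passed edgeR's filter on low counts, as did 11033 genes in all. Whole blood of 13 lactating, clinically healthy cows of 1 commercial herd was drawn from the tail vein into PAXgene tubes, which stabilise RNA at sampling, and its RNA was sequenced without depletion of globin transcripts. The high group held 7 cows (replicates 1 to 7) from the upper end of the herd's ranking by milk cortisol, and the low group held 6 cows (replicates 8 to 13) from the lower end. No cow carried a treatment or a selected genotype, all were labelled Italian Red Pied, the age of each cow and its own cortisol value were not used here, and each cow gave 1 library. Each high cow had between 12198355 and 23709740 counts on named genes, and each low cow between 11045599 and 28124575.

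B cells are the lymphocytes that carry membrane immunoglobulin and that give rise to antibody-secreting plasma cells. *EBF1* and *PAX5* encode transcription factors that set up and hold the B cell programme, and *CD79A* and *CD79B*, 2 targets of that programme, encode the chains through which the B cell receptor signals. *MS4A1* (CD20), *CD22* and *CR2* (CD21) encode surface proteins of mature B cells, *FCRLA* an intracellular relative of the Fc receptors, and *BLK* a kinase of the SRC family that acts below the receptor. Whole blood holds B cells among neutrophils, T cells, monocytes, platelets and red cells, so that a level per library cannot tell a lower share of B cells from less RNA per B cell.

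On the UMD3.1 build of the count tables, *CD79A* lay on the minus strand of chromosome 18 at 51679284 to 51682971 and *CD22* on its plus strand at 46228132 to 46239044. *CD79B* was placed on chromosome 19 at 48784794 to 48787753 (minus strand). *MS4A1* was on chromosome 15 at 84615940 to 84630983 (plus strand), and *FCRLA* on chromosome 3 at 7898510 to 7904866 (minus strand). *BLK* at 7658877 to 7710709 and *PAX5* at 61399822 to 61566719 were both on the minus strand of chromosome 8. *CR2* was found on chromosome 16 at 5253453 to 5302725 (plus strand) and *EBF1* on chromosome 7 at 72396487 to 72804182 (minus strand). The values are sums over the exons of each gene, and the exons of none of the 9 overlapped those of another named gene.

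The 9 genes spanned a wide range of levels. On a scale of reads per kilobase of exon and per library size (RPKM, mean ± SD over the 13 cows), *CD79A* stood highest at 705 ± 180 and ranked 112 of the 11033 genes tested. It was followed by *CD79B* at 508, *MS4A1* at 335 and *CD22* at 211 RPKM, so the receptor chains and 2 surface proteins of mature B cells led. *BLK* at 89.0 and *FCRLA* at 73.2 RPKM came next, then *CR2* at 15.1, *PAX5* at 8.73 and *EBF1* at 2.31 RPKM, the last at rank 8978. Each gene differed from its neighbour in this order of RPKM in at least 12 of the 13 cows, apart from *BLK* and *FCRLA*. Over the 8 neighbouring pairs, an exact two-sided sign-flip permutation test within cows gave adjusted p of at most 0.0014 for the other 7 (smallest possible p 0.000244). *BLK* was above *FCRLA* in 7 of 13 cows, with a mean log2 difference of 0.12 ± 0.94 (SD, exact permutation p = 0.648), so these neighbours were not separated. The transcription factors were the 2 lowest of the 9 per length, and *EBF1* rested on only 22 to 161 counts per cow, against 7344 to 27104 for *CD79A*.

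The first question was whether these genes differed between high and low cows. None of the 9 was called different: with edgeR's quasi-likelihood test, 0 genes passed an adjusted p of 0.05, members or others (0% of 11033 tested), and the smallest adjusted p of any gene was 0.998. At an unadjusted p under 0.05 stood 1 of the 9, *CR2*, beside 2.09% of all genes tested. By limma-voom it was again *CR2* alone (1.98% of all genes, and 0% at an adjusted p of 0.05), and by DESeq2 *CR2* and *EBF1* (2.43% of all genes), with 0 of the 9 and 0.00697% of all genes at an adjusted p of 0.05. The log2 fold change, high over low, was positive for 8 of the 9, where 53.3% of all genes were positive, and its median was 0.14 over the 9 and 0.01 over all genes. The CPM values (counts scaled to library size with TMM factors) of the groups overlapped for all 9, and over all genes 0.0272% had groups without overlap. The 13 cows were separate animals. The exact two-sided permutation tests given for single genes compare group means of log2 CPM under each of the 1716 ways to split the cows 7 to 6, and their p cannot be lower than 0.000583.

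**Figure D1:**
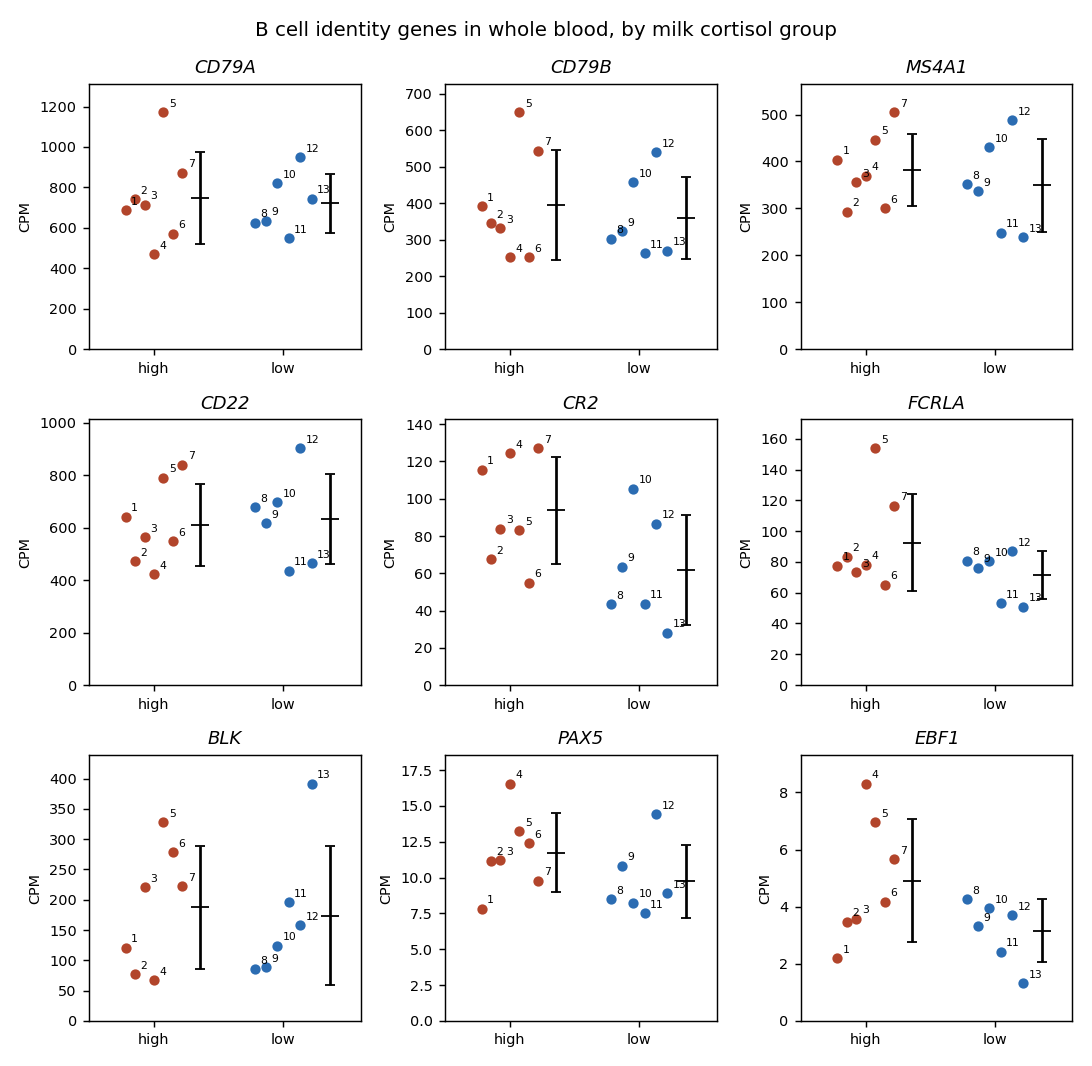
CPM (vertical axes, linear, starting at 0) of each of the 9 genes in the 7 high and 6 low cows, points numbered by replicate, with bars for the group mean and SD. The groups overlap in every panel, and in the panel of *CR2* all 7 high cows lie above the low median of 53.6 CPM.

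The 2 signalling chains of the B cell receptor had nearly the same means in both groups. *CD79A* ranged from 469 to 1172 CPM in high cows (median 715) and from 550 to 951 CPM in low cows (median 690). High 5, low 12 and high 7 were the 3 highest cows and high 4 the lowest, so the high group held both ends. The means were 747 ± 227 (SD, n = 7) and 721 ± 148 CPM (SD, n = 6), with a log2 fold change of 0.05 (SE 0.19, exact permutation p = 0.916). *CD79B*, its partner chain, ranged from 252 to 650 CPM in high cows (median 344) and from 263 to 540 CPM in low cows (median 313). The same cows, high 5, high 7 and low 12, stood at the top, and high 4 and high 6 at the bottom. Its means were 395 ± 149 (SD, n = 7) and 359 ± 113 CPM (SD, n = 6), and the log2 fold change was 0.14 (SE 0.24, exact permutation p = 0.681).

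Among the surface proteins, *MS4A1*, the antigen CD20 that most B cell counts by flow cytometry rely on, ranged from 293 to 505 CPM in high cows (median 370) and from 239 to 488 CPM in low cows (median 344). Low 13 and low 11 were the 2 lowest cows of all, and high 7 and low 12 the highest, and the ranges overlapped over most of their length. The means of *MS4A1* were 382 ± 76.6 (SD, n = 7) and 349 ± 98.4 CPM (SD, n = 6), and the log2 fold change was 0.13 (SE 0.18, exact permutation p = 0.427). *CD22*, an inhibitory co-receptor that binds sialic acid, was the only one of the 9 with a negative log2 fold change. Its CPM ran from 423 to 840 in high cows (median 564) and from 436 to 903 in low cows (median 646), with the highest value in low 12 and the lowest in high 4. The means were 611 ± 156 (SD, n = 7) and 632 ± 171 CPM (SD, n = 6), with a log2 fold change of -0.05 (SE 0.19, exact permutation p = 0.837).

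*CR2*, the receptor for complement fragments in the B cell co-receptor, was the gene nearest to a difference. It ranged from 54.9 to 127 CPM in high cows (median 83.9) and from 28.0 to 105 CPM in low cows (median 53.6). All 7 high cows lay above the low median, 3 high cows lay above every low cow and 3 low cows below every high cow, and low 9, low 10 and low 12 lay within the high range. The means were 93.8 ± 28.7 (SD, n = 7) and 61.8 ± 29.4 CPM (SD, n = 6), and the log2 fold change was 0.61 (SE 0.28), with an unadjusted edgeR p of 0.0436, an adjusted p of 0.998 and an exact permutation p of 0.0641. The study's own list of differing genes, made on cows of this series, holds *CR2*, so its direction here is not independent evidence. That list was made with DESeq2 at a corrected p of 0.05, on groups that the study describes as larger than those used here. With DESeq2 on the cows used here, *CR2* had an unadjusted p of 0.0310 and an adjusted p of 0.9999. The unadjusted edgeR p of *CR2* stayed under 0.05 in 6 of the 13 fits that left out 1 cow, and was 0.05 or more without high 1, high 4, high 7, low 8, low 9, low 11 or low 13, with a log2 fold change between 0.46 and 0.83 over the 13.

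*FCRLA*, whose protein stays inside B cells and binds immunoglobulin, had the same median in both groups to within 1 CPM. Its values ran from 65.2 to 154 CPM in high cows (median 78.2) and from 50.8 to 86.8 CPM in low cows (median 78.3). Only high 5 and high 7 lay above the low group, and low 11 and low 13 lay below the high group. The means were 92.6 ± 31.6 (SD, n = 7) and 71.4 ± 15.4 CPM (SD, n = 6), and the log2 fold change was 0.38 (SE 0.20, exact permutation p = 0.139). *BLK*, the kinase, ranged from 66.9 to 328 CPM in high cows (median 220.4) and from 85.0 to 392 CPM in low cows (median 141). The highest cow of all was low 13 and the lowest high 4, and the groups overlapped over most of their range. Its means were 188 ± 101 (SD, n = 7) and 174 ± 115 CPM (SD, n = 6), and the log2 fold change was 0.11 (SE 0.42, exact permutation p = 0.834).

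The 2 transcription factors had low counts. *PAX5*, which keeps B cells committed to their lineage, ranged from 7.83 to 16.5 CPM in high cows (median 11.2) and from 7.51 to 14.4 CPM in low cows (median 8.70). High 4 was the highest cow and low 12 the next, while low 11 and high 1 were the lowest. The means were 11.7 ± 2.75 (SD, n = 7) and 9.74 ± 2.55 CPM (SD, n = 6), and the log2 fold change was 0.28 (SE 0.19, exact permutation p = 0.178). *EBF1*, which acts before *PAX5* in B cell development, ranged from 2.20 to 8.30 CPM in high cows (median 4.17) and from 1.32 to 4.25 CPM in low cows (median 3.50). High 4, high 5 and high 7 lay above all low cows and low 13 below all high cows. Its means were 4.91 ± 2.16 (SD, n = 7) and 3.16 ± 1.10 CPM (SD, n = 6), and the log2 fold change was 0.64 (SE 0.32, exact permutation p = 0.124).

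**Figure D2:**
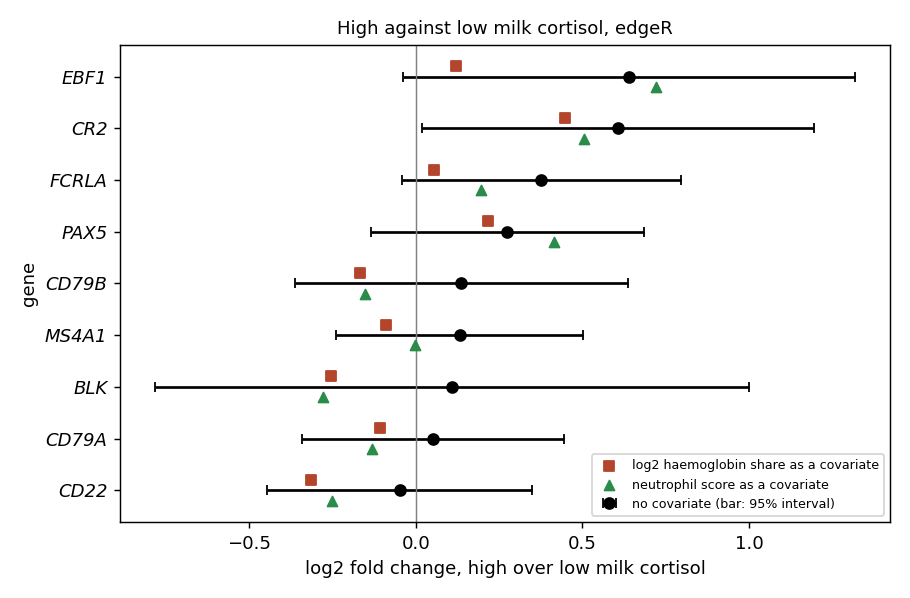
Log2 fold change of each gene, high over low, on the horizontal axis, with circles for the edgeR estimate without a covariate, bars for its 95% interval, squares for the estimate with the log2 haemoglobin share as covariate and triangles for that with the neutrophil score. The intervals, not adjusted for the number of genes, hold 0 for 8 of the 9 genes and lie just above it for *CR2* (0.02 to 1.19), and they run from narrow for *MS4A1* (-0.24 to 0.50) to wide for *BLK* (-0.78 to 1.00).

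The 95% intervals of the log2 fold change, from the SE and the degrees of freedom of the edgeR test, differed in width between genes. For *MS4A1* the interval was -0.24 to 0.50, for *CD79A* -0.34 to 0.45 and for *CD22* -0.45 to 0.35, so a log2 fold change of 1 lay outside the intervals of these 3 genes. For *BLK*, *CR2* and *EBF1* the intervals ran up to 1.00, 1.19 and 1.32 and did not leave out a log2 fold change of 1. That of *CR2* began at 0.02, which goes with its unadjusted p and not with its adjusted p or its exact permutation p.

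Haemoglobin and neutrophil counts had different but overlapping ranges in the 2 groups, and none of their genes passed an adjusted edgeR p of 0.05. The share of counts on haemoglobin genes was 0.0282% to 0.815% in high cows and 0.0114% to 0.0552% in low cows, and high 7 and high 5, the 2 high cows with the most B cell transcripts, also had the largest haemoglobin shares. Of the 4 erythroid genes tested 3 had an unadjusted edgeR p under 0.05 (*HBB*, *HBM* and *ALAS2*, all with positive log2 fold changes), and their summed CPM, with 2 genes below the filter, ranged from 373 to 7839 in high cows and from 138 to 570 in low cows. For the 5 neutrophil genes counted the summed CPM was 3577 to 7449 in high cows and 5753 to 8252 in low cows. With the log2 haemoglobin share or the neutrophil score as a covariate, 4 of the 9 genes had positive and 5 negative log2 fold changes, and 0 had an unadjusted edgeR p under 0.05. Of all genes tested, 1.09% were under 0.05 with the haemoglobin and 5.25% with the neutrophil covariate, against 2.09% without a covariate. The log2 fold changes of *EBF1* and *FCRLA* were 0.12 and 0.05 with the haemoglobin covariate, and that of *FCRLA* was 0.20 with the neutrophil covariate, where *PAX5* and *EBF1* had larger values of 0.41 and 0.72. Without high 5 alone, 5 were positive and 4 negative, and without high 7 alone 8 and 1. Across the 13 cows, none of 18 relations of the 9 genes with the log2 haemoglobin share or with log2 depth passed adjustment, the largest being *EBF1* with haemoglobin (Pearson r = 0.67, Spearman rho = 0.52, permutation p = 0.0129 and adjusted 0.216, r = 0.59 without the 2 farthest cows). What part the red cell or neutrophil content had in the fold changes was not tested further.

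Levels varied widely from cow to cow within both groups. The SD of log2 CPM over the 13 cows was above the median SD of all genes tested (0.31) for all 9. *BLK* was the most variable for its place among all genes, with an SD at percentile 96.1 and 5.85 times more in the highest than in the lowest cow. *EBF1* stood at percentile 91.2 (6.28 times) and *CR2* at 90.8 (4.54 times), while *CD79B*, *FCRLA*, *CD22*, *CD79A*, *PAX5* and *MS4A1* lay between percentiles 57.6 and 74.4. The sum of the 9 genes ran from 1808 to 3643 CPM in high cows (median 2360.0) and from 1800 to 3231 CPM in low cows (median 2188). High 5 was above the mean of the 13 cows in all 9 genes, and high 7 and low 12 were above it in 8. Low 11 was above the mean in 1 gene, and low 9 and low 13 in 2. By the sum, cows rich and cows poor in B cell transcripts were found in both groups. By the number of genes above the mean, the poorest cows were all low, and each high cow had at least 3. The mean of the 9 centred log2 CPM values was 0.11 ± 0.31 (SD, n = 7) in high and -0.13 ± 0.30 (SD, n = 6) in low cows. Its lowest value was -0.19 in high and -0.43 in low cows.

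**Figure D3:**
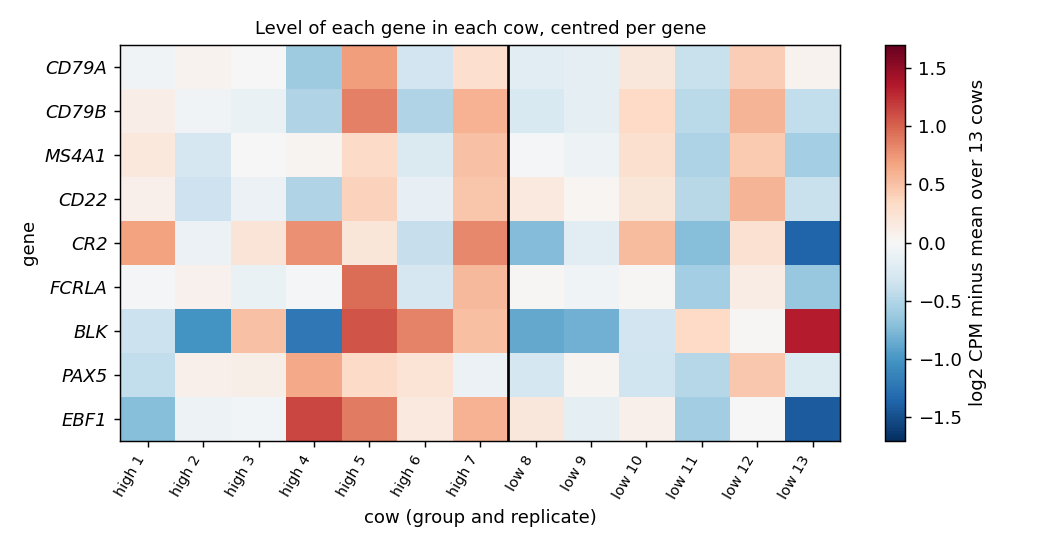
Log2 CPM of the 9 genes (rows) in the 13 cows (columns), each gene centred on its mean over the cows, with red above and blue below that mean. High 5 is above the mean in all 9 genes, low 11 in 1, and the row of *BLK* departs from the others in low 13 and low 11.

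The genes moved together from cow to cow, but not all of them. All values of a cow come from 1 library and share its depth and its mix of cells. Of the 36 pairs, 31 had a positive Pearson r of log2 CPM over the 13 cows (median 0.42, range -0.32 to 0.91), and 11 passed an adjusted permutation p of 0.05 over the 36, 9 of them also by Spearman rho. *CD79A*, *CD79B*, *MS4A1*, *CD22* and *FCRLA*, a set of 5 picked after these values were seen, gave 9 of the 11 pairs and had a median r of 0.81 among themselves.

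**Figure D4:**
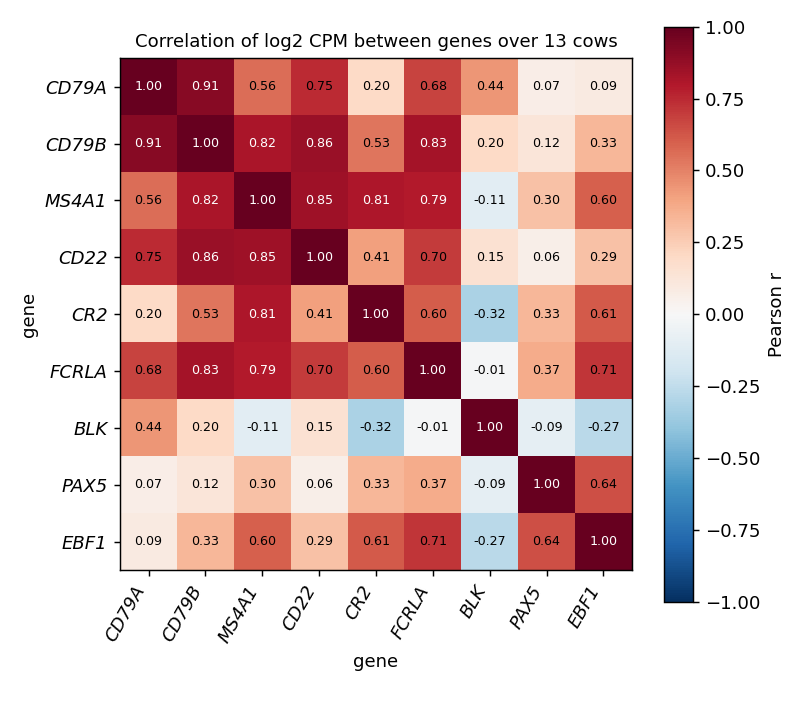
Pearson r of log2 CPM over the 13 cows for each of the 36 pairs of the 9 genes, on a colour scale from -1 to 1. The 10 pairs within *CD79A*, *CD79B*, *MS4A1*, *CD22* and *FCRLA* lie between 0.56 and 0.91, and 5 of the 8 pairs with *BLK* are negative.

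The closest pair was that of the 2 receptor chains, *CD79A* and *CD79B*, whose proteins form 1 heterodimer (r = 0.91, rho = 0.89, adjusted permutation p = 0.00036, r = 0.87 without the 2 farthest cows). Next came *CD79B* with *CD22* (r = 0.86, rho = 0.85, adjusted permutation p = 0.00264, r = 0.83 without 2 cows) and *MS4A1* with *CD22* (r = 0.85, rho = 0.80, adjusted permutation p = 0.00297, r = 0.80 without 2 cows). The pair *CD79B* and *FCRLA* followed (r = 0.83, rho = 0.75, adjusted permutation p = 0.00126, r = 0.62 without 2 cows). *CR2* passed with *MS4A1* alone (r = 0.81, rho = 0.80, adjusted permutation p = 0.00498, r = 0.63 without 2 cows), and its r with *CD79A* was 0.20. Both groups showed the closest pairs, with r for *CD79A* and *CD79B* of 0.94 in high and 0.85 in low cows, and for *MS4A1* and *CD22* of 0.80 in high and 0.97 in low cows.

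The transcription factors were looser. *EBF1* passed with *FCRLA* alone (r = 0.71, rho = 0.62, adjusted permutation p = 0.0265, Spearman adjusted 0.0955, r = 0.47 without 2 cows), and *PAX5* with none of the other 8. *PAX5* and *EBF1* had an r of 0.64 with each other (rho = 0.56, adjusted permutation p = 0.0531, r = 0.45 without 2 cows), and *PAX5* had an r of 0.07 with *CD79A* and of 0.12 with *CD79B*, the first of which its protein is known to activate. *PAX5* was counted 130 to 306 times per cow, and how much of its looseness comes from counting error was not tested.

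Set against the mean of the other 8, *FCRLA* (r = 0.86), *MS4A1* (0.84) and *CD79B* (0.83) ranked 6, 11 and 13 among 11025 genes, and *CD22* (0.72) and *CD79A* (0.67) ranked 60 and 115. *CR2* (0.51) ranked 664, *EBF1* (0.49) 897 and *PAX5* (0.34) 1643. *BLK*, with an r of -0.06, ranked 6397, past the middle of all genes ranked. The genes closest to the mean of all 9 were *BOLA-DOA* (r = 0.90), which encodes the alpha chain of the MHC class II modifier that B cells use, then *LBH*, *TSPOAP1*, *SLC43A2*, *HAAO*, *EIF1AD*, *AFAP1L1*, *FCRL3*, *DPCD* and *CELA1* (r down to 0.84). At the other end stood *TFG* (r = -0.84), *GJB2*, *LGR6*, *EPB41L3* and *CAPN2* (-0.78). These are descriptions over the same 13 libraries.

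Taken singly, several of the 9 had a known B cell gene among their closest. *MS4A1* was closest to *BOLA-DOA* (r = 0.89), with *BLNK*, the adaptor of the B cell receptor, at rank 3. *CD79B* was closest to *CERS4* (r = 0.96), with *HLA-DOB*, which encodes the partner chain of *BOLA-DOA*, at rank 5 (0.93). *PAX5* was closest to *CNN3* (r = 0.89), with the lymphoid transcription factor *IKZF3* at rank 2 (0.87). *CD79A* was closest to *POLD2* (r = 0.94), *FCRLA* to *LBH* (0.91), *CD22* to *SLC12A4* (0.91), *CR2* to *ETFBKMT* (0.86) and *EBF1* to *SEL1L3* (0.92), which are not B cell markers by themselves.

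*BLK* followed genes of another lymphocyte more closely than it followed the other 8 genes over these cows. Its closest genes were *SOX13* (r = 0.97), a transcription factor of gamma delta T cells, then *DOK7*, *L1CAM*, *TRDC* (0.93), the constant region of the T cell receptor delta chain, and *TRGV11* (0.93), a variable segment of the gamma chain. Gamma delta T cells, the T cells with a receptor of gamma and delta chains, are abundant in the blood of cattle. The gene segments of the receptor are near copies of each other, and reads could have been split among them.

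In the 6 cows with the most *BLK*, low 13, high 5, high 6, high 7, high 3 and low 11, *BLK* was at 392, 328, 278, 222, 220.4 and 196 CPM and *TRDC* at 1050, 770.3, 810.1, 571, 590.0 and 808 CPM. In the 4 cows with the least, high 4, high 2, low 8 and low 9, *BLK* was at 66.9, 76.6, 85.0 and 88.2 CPM and *TRDC* at 244, 232, 402 and 296 CPM. Low 13 thus had the most of both transcripts, although it was the lowest of all cows in *MS4A1*, *FCRLA*, *CR2* and *EBF1*. It was not the lowest in the remaining members. Its *CD79A* was at 745 CPM, above the low median of 690 CPM, and its *CD79B*, *CD22* and *PAX5* were at 270, 464 and 8.90 CPM.

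The score of the gamma delta T cell genes counted (*SOX13*, *TRDC* and *GATA3*, mean centred log2 CPM) followed *BLK* over the 13 cows with a Pearson r of 0.95 and a Spearman rho of 0.93 (permutation p = 1e-05, the smallest that 100000 permutations can give, adjusted p = 0.00072 over 72 relations of the 9 genes with 8 lists). It was 0.93 without the 2 farthest cows, 0.97 within the high and 0.95 within the low group, and between 0.94 and 0.97 with any 1 cow left out. Of the genes in the score *GATA3* was much looser, with an r of 0.58 with *BLK* (rank 575 of 11032). *SOX13* and *TRDC* are among the closest genes of *BLK* named above, so the score is not separate evidence. The scores left a gap between -0.27 and 0.34, and within the 7 cows below it and the 6 cows above it the r was 0.80 and 0.84. Of the 72 relations, 2 passed adjustment by Pearson r, and the other was also of *BLK*, with the T cell list (r = 0.79, rho = 0.80, adjusted permutation p = 0.0446, Spearman adjusted 0.0626, r = 0.75 without 2 cows). Within that list *CD247* (r = 0.92, rank 11 of 11032) and *CD3E* (0.85, rank 26) were close to *BLK*, and *CD4* (-0.07) and *CD3G* (0.05) were not. With *BLNK*, a B cell gene outside the 9, *BLK* had an r of 0.01. Its r with the mean of the other 8 genes was not the same in all cows, at 0.38 in the high and -0.57 in the low group, and 0.63 in the 7 cows below the gap and -0.08 in the 6 above it.

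**Figure D5:**
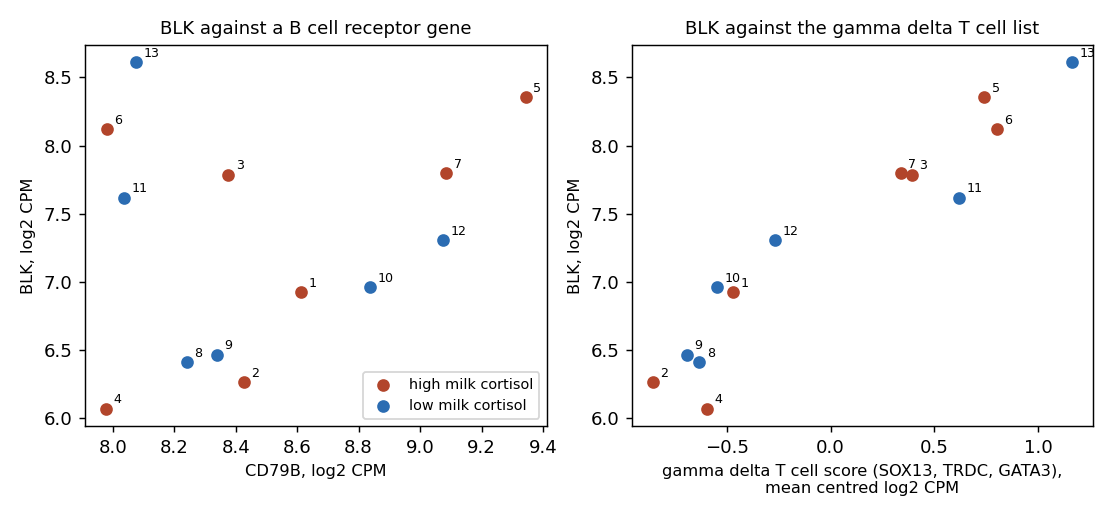
Log2 CPM of *BLK* in each of the 13 cows against log2 CPM of *CD79B* in the left panel and against the score of 3 gamma delta T cell genes (mean centred log2 CPM) in the right panel, points coloured by group and numbered by replicate. *BLK* follows the gamma delta score (r = 0.95) along a line, while its r with *CD79B* is 0.20.

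Among the 8 lists set against single genes, *BLK* was the only one of the 9 to pass with a list of another cell type. The dendritic cell, eosinophil and proliferation lists were not among these 8. The gamma delta genes themselves were not called different between the groups. *SOX13*, *TRDC* and *GATA3* had log2 fold changes of 0.20 (SE 0.55), -0.10 (SE 0.35) and 0.07 (SE 0.20) with unadjusted edgeR p of 0.722 or more. What share of the *BLK* counts comes from B cells cannot be told apart from a share of other cells in these bulk libraries.

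Other genes of the B cell programme, listed by role, gave no call either. Of 16 genes of B cell receptor signalling, 11 had positive and 5 negative log2 fold changes, from 0.26 for *MALT1* to -0.18 for *LYN*, a kinase that myeloid cells also use, and 0 had an unadjusted edgeR p under 0.05. The score of this list followed the mean of the 9 genes (r = 0.72). Of 5 inhibitory receptors and phosphatases 2 were positive and 3 negative (*FCRL1* 0.21, *PECAM1* -0.07), with an r of 0.79 to the same mean. Of 8 survival and homing receptors 3 were positive and 5 negative (*CXCR5* 0.09, *TNFRSF13B* -0.24), and of 11 transcription factors 7 were positive and 4 negative (*IKZF3* 0.28, *BCL6* -0.20), with an r of 0.58 and 0.17. None of these 24 genes had an unadjusted edgeR p under 0.05.

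Markers of precursor and germinal centre stages, which arise in marrow and lymphoid tissue, were mixed, with some near 0 and others clearly counted. *RAG1*, *RAG2* and *DNTT*, which recombine receptor genes in precursors, reached at most 6 counts in any cow, and *MME* at most 36. *RGS13*, of germinal centre B cells, reached at most 2 counts. *VPREB3*, the 1 precursor gene tested, was at 26.5 ± 13.3 CPM (SD, n = 7) in high and 21.0 ± 13.1 CPM (SD, n = 6) in low cows, with a log2 fold change of 0.35. The germinal centre genes *GCSAM*, *S1PR2* and *MEF2B* had 116 to 376, 100 to 278 and 20 to 75 counts per cow. Of these 3, *GCSAM* had the largest positive log2 fold change (0.45) and *MEF2B* the largest negative one (-0.14). For *GCSAM* the edgeR quasi-likelihood test gave an unadjusted p of 0.0156 and an adjusted p of 0.998. Among 6 plasma cell genes 1 was positive and 5 negative, with *DERL3* at 0.01, *MZB1* at -0.55 and *PRDM1* at -0.26, and their score had an r of 0.17 with the mean of the 9 genes. For *PRDM1*, which drives B cells to become plasma cells, the unadjusted p of edgeR's test was 0.0494.

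Markers of other blood cells were present throughout, and none of their genes passed an adjusted edgeR p of 0.05. Their scores had an r with the mean of the 9 B cell genes of -0.20 for 12 T cell genes, -0.52 for 5 neutrophil genes, -0.50 for 6 monocyte genes and 0.66 for 4 erythroid genes (rho = 0.43), given here as a description. The r was 0.78 for 2 plasmacytoid dendritic cell genes (rho = 0.70) and 0.31 for 6 cytotoxic and NK cell genes. For *MFGE8*, the 1 follicular dendritic cell gene tested, it was -0.67. For the gamma delta T cell, eosinophil, platelet and proliferation lists it lay between -0.18 and 0.07. At an unadjusted edgeR p under 0.05 stood *CSF3R* and *S100A9* of the neutrophil list (log2 fold changes -0.45 and -0.44), *CD68* of the monocyte list (-0.53), and *MKI67* and *BUB1* of 6 proliferation genes (-0.59 and -0.53). Of the T cell, gamma delta T cell, cytotoxic, eosinophil, platelet and dendritic cell genes, 0 did. The T cell list had 3 positive and 9 negative log2 fold changes (*ZAP70* 0.20, *CD4* -0.20), the monocyte list 4 and 2 (*VCAN* 0.42), the neutrophil list 2 and 3 (*S100A8* 0.45) and the platelet list 0 and 5 (*TUBB1* -0.15, *GP1BA* -0.64). All 6 cytotoxic and NK cell genes (*GZMB* 0.48, *PRF1* 0.10), all 3 eosinophil genes (*IL5RA* 0.44, *CCR3* 0.34) and all 4 erythroid genes (*HBM* 2.76, *EPB42* 0.51) were positive, and all 6 proliferation genes negative (*CDK1* -0.11). Of dendritic cell genes, *TCF4* was at 0.25, *PACSIN1* at -0.02 and *MFGE8* at -0.08.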

How the data were processed

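Gene counts of whole blood RNA-seq from 13 cows were analysed. The authors deposited counts, reads per gene name summed over exons, as whole numbers without normalisation. The file headers name featureCounts 1.4.6-p3 with Ensembl release 88 models of UMD3.1, while the submitters' processing notes name STAR 2.7.3, Subread 1.6.5 and ARS-UCD1.2. The headers also carry animal numbers that differ from those of the file names, and groups were taken from the sample labels. No strand option is named. The unnamed row (13.9% to 16.7% of counts) was left out.

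Counts were scaled by TMM to CPM, and log2 CPM were taken with a prior count of 2. Groups were compared with edgeR 4.0.16 in R 4.3.3 (robust quasi-likelihood fit, no covariate) after filterByExpr with its defaults (10 counts, total of 15), with Benjamini-Hochberg adjustment over all of them. The SE is the log2 fold change over the square root of the F statistic. RPKM used the exon lengths of the tables. Exact and 100000-resample permutation tests used scipy 1.17.1 in Python 3.11.15. Haemoglobin genes were the 4 in the tables. A count of 0 allows up to 3 counts, 0.107 to 0.272 CPM at these depths, which covers counting error only.

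The members and all gene lists were chosen with earlier results of these data known. Named were the 9 members, in each list the genes with the largest positive and negative log2 fold change and those at an unadjusted p under 0.05, the 10 most and 5 least like the members' mean, and each member's closest gene. Other nearest genes, *BLNK*, T cell genes and genes near 0 were named after their values were seen. Alternatives were DESeq2 1.42.0, limma-voom (limma 3.58.1), RLE and upper-quartile factors, other filters, haemoglobin genes left out, the haemoglobin share or neutrophil score as covariate, a fit that is not robust, a prior count of 0.5, and each cow left out. No genome sequence of the build was used here, so no sequence is given. Some genes are not reported here.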

Additional observations from a re-analysis of the deposited data

How the results depend on the processing

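No paired analysis was made, because the groups are separate cows and the labels match no high cow to a low cow. By DESeq2, 1 gene of all tested passed an adjusted p of 0.05, against 0 by edgeR, and it was not 1 of the 9. The number of the 9 at an unadjusted p under 0.05, which was 1, was 2 by DESeq2 (*CR2* and *EBF1*), 0 with the haemoglobin covariate, 0 with the neutrophil covariate and 0 to 2 with 1 cow left out. The share of all genes, which was 2.09%, was 2.43% by DESeq2 and 1.09% and 5.25% with these covariates. It ran from 1.74% to 3.40% with 1 cow left out. With 1 cow left out, the median log2 fold change of the 9 ran from 0.06 to 0.29 and the median r of the pairs from 0.36 to 0.58. Signs turned with the haemoglobin covariate for *MS4A1* (-0.089), *CD79A* (-0.11), *CD79B* (-0.17) and *BLK* (-0.25), and with the neutrophil covariate for *MS4A1* (-0.0026), *CD79A* (-0.13), *CD79B* (-0.15) and *BLK* (-0.28). With 1 cow left out, the log2 fold change ran from -0.091 to 0.15 for *CD79A*, from -0.026 to 0.29 for *CD79B*, from -0.082 to 0.53 for *BLK* and from -0.14 to 0.081 for *CD22*. The cause of these turns was not tested. Besides *CR2*, the unadjusted edgeR p fell under 0.05 for *PAX5* without low 12, for *FCRLA* without high 6, and for *EBF1* without high 1, high 2 or low 8. *PAX5*, *FCRLA*, *CR2* and *EBF1* kept a positive sign under each alternative run, and in none did any of the 9 pass an adjusted p of 0.05. Depth limits *EBF1* first, with 22 counts in its lowest cow.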

Other observations

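The variation of *BLK* that the gamma delta T cell score did not describe was examined after its values were seen. The score holds *SOX13* and *TRDC*, which are among the closest genes of *BLK*. The permutation p of this paragraph are therefore descriptions and not tests. The rank of its r values among all genes is not given here. A straight line of *BLK* log2 CPM on that score left 8.97% of the variance of *BLK*. Over the 13 cows, this remainder had a Pearson r of 0.85 with *CD79A* (rho = 0.87, adjusted permutation p = 0.002 over 8 relations, r = 0.84 without the 2 farthest cows), where *BLK* itself had 0.44. With *CD79B* the remainder had an r of 0.80 (rho = 0.86, adjusted permutation p = 0.00291, 0.86 without 2 cows), where *BLK* itself had 0.20, and with *CD22* 0.79 (rho = 0.79, adjusted permutation p = 0.00291, 0.68 without 2 cows), where *BLK* itself had 0.15. With any 1 cow left out these 3 values stayed between 0.75 and 0.90. The remainder had an r of 0.59 with *MS4A1* (rho = 0.66, adjusted permutation p = 0.0657), and of -0.10 with *PAX5* and -0.11 with *EBF1*. With *FCRLA* its r was 0.46 (adjusted permutation p = 0.185) and with *CR2* 0.28 (adjusted permutation p = 0.478). Of the 8 relations, those with *CD79A*, *CD79B* and *CD22* alone had an adjusted permutation p under 0.05.

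The ratio of *CR2* to *CD79B* within a cow, also looked at after the values were seen, was on the log2 scale of CPM -2.05 ± 0.59 (SD, n = 7) in high cows and -2.62 ± 0.39 (SD, n = 6) in low cows. The highest cow was high 4 at -1.02 and the lowest low 13 at -3.26, and the groups overlapped. This difference was not tested.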
